A study of Mus musculus with 21 samples.

Results

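The liver of a transglutaminase 2 knockout (TG2-KO) mouse given LPS was compared with the liver of a wild-type (WT) mouse given LPS, across all 5298 genes listed in the liver expression table. The comparison rests on 3 of the 21 RNA sequencing libraries of a mouse study of transglutaminase 2, vimentin and macrophage activation in sepsis. The TG2-KO library came from a C57BL/6J mouse lacking TG2 that received LPS at 30 mg/kg into the abdominal cavity, with the extraction date 20201029. The WT library came from a C57BL/6J mouse with the same dose and the date 20210513. A second WT C57BL/6J liver after LPS, with the date 20201117 and no dose in its label, belonged to a macrophage depletion experiment as its undepleted liver, and is called the other-date WT liver here. It gauges how far WT livers lie apart when animal, experiment and date differ. PBS livers of both genotypes, from the same dates as the TG2-KO and WT LPS livers, give the levels without LPS. The labels do not describe the knockout allele, and time after LPS, age and sex are not given in the sources used here.

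Transglutaminase 2, the product of Tgm2, is a calcium-dependent enzyme that joins glutamine to lysine side chains and so crosslinks proteins, and it also binds GTP and matrix proteins. LPS, the endotoxin of the Gram-negative bacterial envelope, activates macrophages and endothelium through Toll-like receptor 4, and their cytokines switch hepatocytes to the acute phase programme. In that state the liver makes more defence proteins and less of the enzymes of lipid, bile acid and drug metabolism.

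Each group was 1 library, so no test, SD or p-value was possible, and TPM, the length- and library-scaled transcript abundances of the table, keep no read depth, which is therefore unknown. Differences are TG2-KO minus WT of log2(TPM + 1), a scale that understates changes of low genes. A gene was counted when the difference was at least 1, about 2-fold, in size, among the 3792 genes whose mean over the 3 LPS livers reached 1 TPM. Genotype and extraction date cannot be told apart, because both TG2-KO libraries share a date that no WT library has. The WT LPS library had also served to choose the listed genes: among genes above 0 in the WT LPS and WT PBS livers, 0 differed by less than 2-fold between them. Listed TPM summed to 280182 in the TG2-KO, 304544 in the WT and 243553 in the other-date WT LPS liver.

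Tgm2, the targeted gene, lies on chromosome 2 from 158116402 to 158146436 (GRCm38, minus strand). It stood at 15.5 TPM in the TG2-KO liver, against 425 TPM in the WT and 382 TPM in the other-date WT liver, all after LPS. With PBS it was 0.74 TPM in the TG2-KO liver and 35.7 TPM in the WT liver. The TG2-KO level after LPS was 3.66% of the WT and 4.07% of the other-date WT level. A remainder of Tgm2 reads was thus listed in the knockout, and it was higher with LPS than with PBS by 3.25 log2 units in TG2-KO and 3.54 in WT livers.

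Against the WT liver, 216 genes were at least 1 log2 unit higher (5.7% of those measured) and 105 lower (2.77%) in the TG2-KO liver. Against the other-date WT liver, 161 genes (4.25%) were higher and 6.99% of the measured genes lower. At this setting the WT livers differed from each other as much: 298 genes were higher (7.86%) and 85 lower (2.24%) in the other-date WT than in the WT liver. With a filter at 5 TPM the 3 comparisons gave 133 and 78, 125 and 113, and 102 and 74 genes. There, and with a pseudocount of 5 or a size rule of 2, the WT livers differed from each other in the fewest genes. With a pseudocount of 0.1 or median-of-ratios scaling they did not. The median size of the difference was 0.36 for TG2-KO against WT, 0.40 for TG2-KO against the other-date WT and 0.43 between the WT livers. Scaling by median of ratios turned the balance of the first comparison to 110 higher and 201 lower and that of the second to 248 higher and 148 lower, and the median of all genes was then -0.04 and 0.05, where the deposited scale gave 0.16 and -0.12.

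A narrower count asks for genes in which 1 liver stood at least 1 log2 unit beyond both of the others. The TG2-KO liver was above both WT livers in 68 genes (1.79%) and below both in 54 (1.42%). For the WT liver these numbers were 14 (0.369%) and 52 (1.37%), and for the other-date WT liver 108 (2.85%) and 40 (1.05%). The number of genes in which the TG2-KO liver stood apart was thus between those of the WT livers on this scale. After median-of-ratios scaling it was so too, with 54 above and 50 below for TG2-KO, 55 and 17 for WT and 36 and 105 for the other-date WT liver. Other settings gave another order. With a pseudocount of 5 the TG2-KO liver gave 32 above and 19 below, the WT liver 10 and 4 and the other-date WT liver 14 and 22. With a filter at 5 TPM the TG2-KO liver gave 48 and 39, the WT liver 10 and 30 and the other-date WT liver 34 and 37. With a size rule of 2 these numbers were 6 and 11 for TG2-KO, 1 and 1 for WT and 4 and 4 for the other-date WT liver, so that the TG2-KO liver then had the most. By any amount, the TG2-KO liver lay above both WT livers in 33.9% and below both in 28.5% of all measured genes. Among genes higher with LPS than with PBS in WT these shares were 21.2% and 49.1%, and among genes lower with LPS 40.5% and 17.9%.

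**Figure D1:**
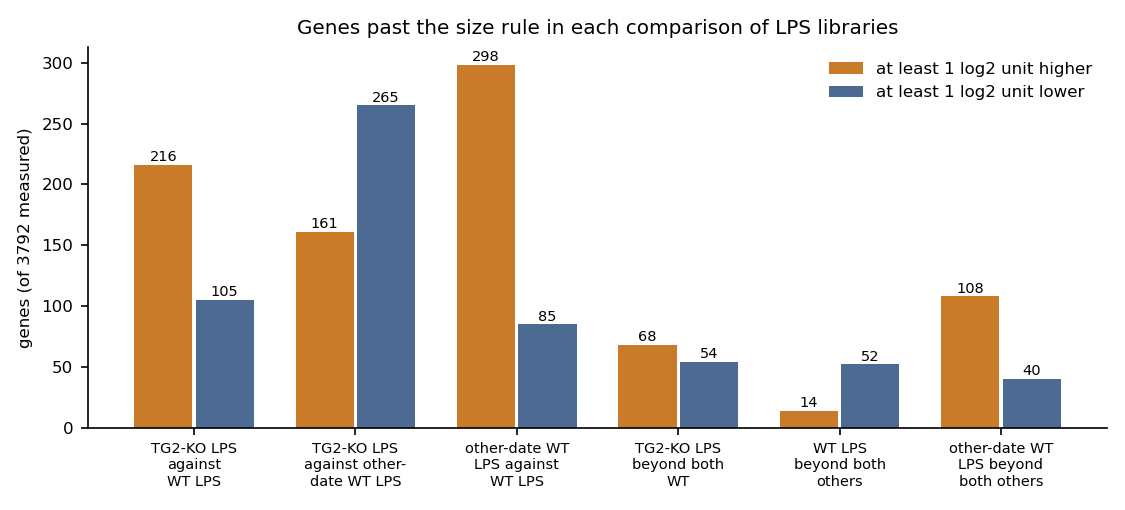
Bars give the number of genes, of 3792 measured, that were at least 1 log2 unit of log2(TPM + 1) higher (orange) or lower (blue) in each comparison of the 3 LPS livers, with 1 library per group. At this setting the WT livers differ from each other in 298 and 85 genes, beside the 216 and 105 of TG2-KO against WT. Other settings gave another order.

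Genes that stood apart in the TG2-KO liver mostly ran against the LPS response. Of the 68 higher genes, 57 were lower with LPS than with PBS in WT liver, and of the 54 lower genes, 45 were higher with LPS in WT liver. The genes that stood apart in the other-date WT liver did so too. Of its 108 higher genes 96 were lower with LPS in WT liver, and of its 40 lower genes 39 were higher with LPS. Among all measured genes 2502 were lower and 1290 higher with LPS in WT. The genes higher with LPS in WT had a median TG2-KO minus WT difference of -0.28, and the genes lower with LPS had 0.33. The same medians for the other-date WT minus WT were -0.22 and 0.45, and against the other-date WT the TG2-KO medians were -0.06 and -0.15. The milder response relative to the WT liver was thus also present in the other-date WT liver, and it bears on a library that took part in choosing the genes.

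Some of these differences were there without LPS. With PBS, 15 of the 68 genes were also at least 1 log2 unit higher and 12 of the 54 also lower in the TG2-KO than in the WT liver. Beyond the WT livers with LPS plus CTM (a compound named as in the labels) and with LPS after macrophage depletion as well stood 32 of the 68 and 15 of the 54. That last count was chosen after the data were seen.

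Serpina3 genes encode secreted inhibitors of serine proteases and lie side by side on chromosome 12. Of the 6 measured, 4 were at least 1 log2 unit below both WT livers in the TG2-KO liver, and the other 2 were also below both. RefSeq upstream sequences (GRCm38.p6, the 250 bases before each start) are shown for these 4 because the family is among the lowest genes, and acute phase genes of this kind are known as targets of STAT factors. Capitals mark TTCNNNGAA, a palindrome of the kind STAT factors bind, searched on this strand, which is equivalent to both strands for a palindrome. The windows are chr12:104214294-104214543 for Serpina3f, chr12:104235897-104236146 for Serpina3g and chr12:104262872-104263121 for Serpina3i, all on the plus strand, and chr12:104153873-104154122 on the minus strand for Serpina3c.
Serpina3f: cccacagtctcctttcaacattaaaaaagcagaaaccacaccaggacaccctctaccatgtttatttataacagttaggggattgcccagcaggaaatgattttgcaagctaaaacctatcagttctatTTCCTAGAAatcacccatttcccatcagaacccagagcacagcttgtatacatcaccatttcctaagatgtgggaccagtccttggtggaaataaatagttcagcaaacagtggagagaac
Serpina3g: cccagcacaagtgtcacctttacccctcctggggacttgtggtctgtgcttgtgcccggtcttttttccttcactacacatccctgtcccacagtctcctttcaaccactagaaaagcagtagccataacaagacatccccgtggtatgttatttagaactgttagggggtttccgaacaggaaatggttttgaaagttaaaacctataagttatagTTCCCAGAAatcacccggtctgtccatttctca
Serpina3i: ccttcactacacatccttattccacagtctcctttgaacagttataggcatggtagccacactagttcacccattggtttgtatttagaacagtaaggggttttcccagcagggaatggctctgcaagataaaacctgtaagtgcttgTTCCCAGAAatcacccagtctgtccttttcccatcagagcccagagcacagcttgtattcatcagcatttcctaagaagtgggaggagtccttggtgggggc
Serpina3c: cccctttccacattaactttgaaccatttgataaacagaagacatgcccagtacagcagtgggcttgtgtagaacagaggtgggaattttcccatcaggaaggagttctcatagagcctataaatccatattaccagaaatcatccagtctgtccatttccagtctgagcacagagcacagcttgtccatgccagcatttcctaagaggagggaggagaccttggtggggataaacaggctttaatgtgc

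The motif was present in 3 of the 5 measured Serpina3 genes with an entry in the promoter table, and in 2306 of all 32851 promoters in it (7.02%). The first count is of genes and the other of promoter entries. The windows of these neighbouring genes are also alike in sequence, so the 3 are not separate cases. The motif began 121 bases before the start of Serpina3f, 33 before that of Serpina3g and 102 before that of Serpina3i. For Serpina3f it also lay 210 bases before another listed start. The letters were not in these windows of Serpina3c and Serpina3n. A match of letters is a description of the window and does not show a bound site.

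Serpina3f had 86.9 TPM in the TG2-KO liver after LPS, against 602 TPM in the WT and 513 TPM in the other-date WT liver. With PBS it was 2.46 TPM in the TG2-KO and 2.20 TPM in the WT liver, so the genotypes were level before LPS. The differences after LPS were -2.78 against WT and -2.55 against the other-date WT. Serpina3c, without the motif, had 7.07 TPM in the TG2-KO liver and 35.1 and 36.1 TPM in the WT and other-date WT livers. The differences were -2.16 and -2.20, in livers where PBS left it at 0.03 TPM in TG2-KO and 0.32 TPM in WT. Serpina3g had 28.5 TPM in the TG2-KO liver, against 69.3 and 80.3 TPM in the WT and other-date WT livers. Serpina3i had 10.2 TPM in the TG2-KO liver, against 27.2 and 33.7 TPM in the WT and other-date WT livers.

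The most abundant members differed less. Serpina3n had 4974 TPM in the TG2-KO liver, against 8238 TPM in the WT and 6896 TPM in the other-date WT liver. Serpina3m had 707 TPM in TG2-KO, against 1180 TPM in WT and 1318 TPM in other-date WT. Both were instead higher in the TG2-KO than in the WT liver with PBS, at 1259 TPM in TG2-KO and 257 TPM in WT for Serpina3n and 530 TPM in TG2-KO and 163 TPM in WT for Serpina3m. Members of this family are similar in sequence, and how reads shared between them were divided is not given in the sources used here.

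Other genes low in the TG2-KO liver had various roles. Ubd, encoding the ubiquitin-like modifier FAT10, had 7.74 TPM in the TG2-KO liver, against 54.9 and 47.4 TPM in the WT and other-date WT livers. The PBS livers of both genotypes had 0.47 TPM, so the livers parted after LPS, by -2.68 and -2.47 log2 units. A2m, encoding the protease inhibitor alpha-2-macroglobulin, had 8.65 TPM in the TG2-KO liver, against 48.0 and 50.4 TPM in the WT and other-date WT livers. Its PBS values were 0.01 TPM in TG2-KO and 0.11 TPM in WT. Ccl19, a ligand of the lymphocyte receptor CCR7, had 8.27 TPM in the TG2-KO liver, against 25.1 TPM in WT and 31.2 TPM in other-date WT, and was listed at 0 in both PBS livers. Ly6a, encoding the surface protein Sca-1, had 14.4 TPM in the TG2-KO liver, against 42.4 TPM in WT and 66.1 TPM in other-date WT. LOC630751, which the annotation used here does not hold, had 12.0 TPM in TG2-KO, against 45.6 TPM in WT and 39.0 TPM in other-date WT. In each of these the TG2-KO liver lay below both WT livers. Gm43305, a predicted noncoding gene on chromosome 14 (54292443 to 54297456, minus strand) named after its values were seen, had 11.4 TPM in the TG2-KO liver, against 595 TPM in WT and 390.18 TPM in other-date WT. With PBS it was 13.3 TPM in TG2-KO and 12.4 TPM in WT, so a level that was higher with LPS than with PBS in WT was not seen in TG2-KO.

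Sparc, which encodes a matrix-associated glycoprotein, had 6.78 TPM in the TG2-KO liver, against 19.9 TPM in the WT and 47.2 TPM in the other-date WT liver. With PBS it had 18.5 TPM in TG2-KO and 49.9 TPM in WT, so the difference was as large without LPS. Kap, named for androgen-dependent expression in kidney, was listed at 0 in the TG2-KO liver after LPS, against 35.1 and 31.3 TPM in the WT and other-date WT livers. It had 5.63 TPM in TG2-KO and 8.13 TPM in WT with PBS. No fold is given against a value of 0, and the macrophage-depleted WT liver was also near the floor, at 0.11 TPM.

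Cytochrome P450 genes gave some of the lowest values. Cyp2b10, the usual target gene of the xenobiotic receptor CAR, had 0.49 TPM in the TG2-KO liver, against 18.7 TPM in the WT and 35.1 TPM in the other-date WT liver. Its PBS values were 1.02 TPM in TG2-KO and 4.34 TPM in WT. Cyp2c69 had 0.68 TPM in the TG2-KO liver, against 12.3 and 24.0 TPM in the WT and other-date WT livers, and with PBS 3.50 TPM in TG2-KO and 27.6 TPM in WT. Cyp2a4 had 0.04 TPM in the TG2-KO liver, against 3.57 TPM in WT and 4.84 TPM in other-date WT. These 3 of the 13 measured drug-metabolising P450 genes were below both WT livers by at least 1 log2 unit, and 0 were above both by that rule. By any amount 4 lay above and 6 below both. Over all measured genes the shares were 1.42% below and 1.79% above by the rule, and 28.5% below and 33.9% above by any amount. The list's median difference was 0.28 against WT and -0.51 against the other-date WT, where all measured genes had 0.16 and -0.12. Close copies matter here: Cyp2a5, which aligned to Cyp2a4 at 98.2% of bases, had 340 TPM in the TG2-KO liver, against 257 and 322 TPM in the WT and other-date WT livers.

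**Figure D2:**
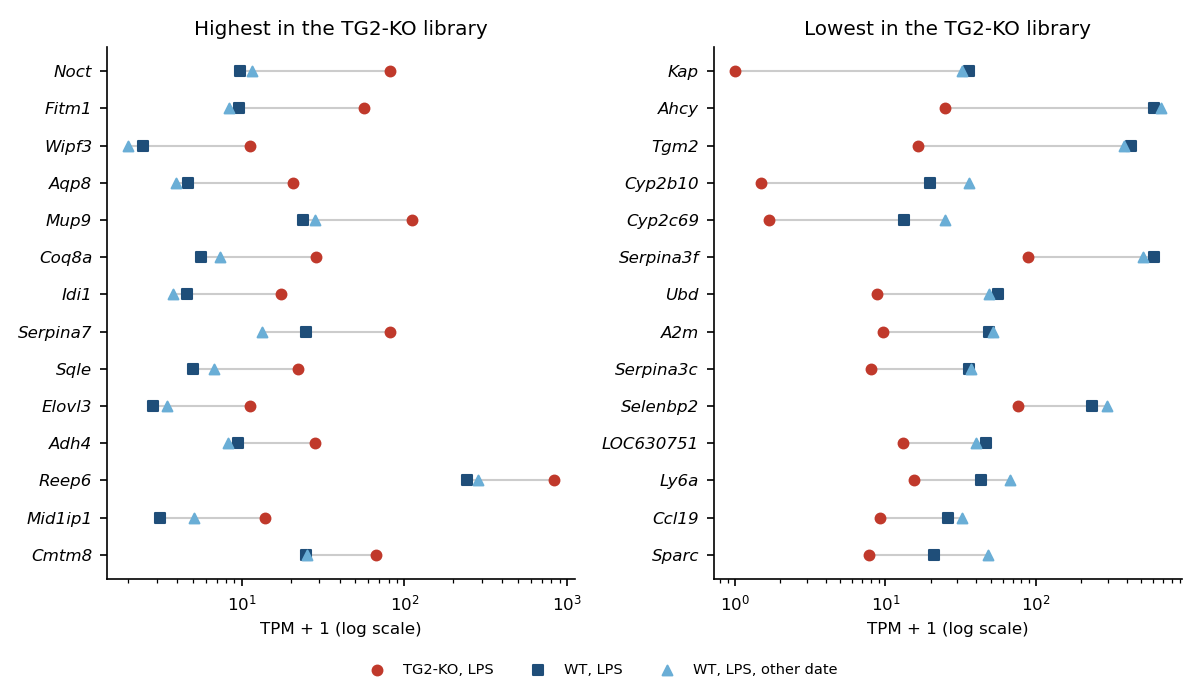
Dots give TPM + 1 on a log scale for the 14 genes highest and the 14 lowest in the TG2-KO liver after LPS, with TG2-KO in red, WT in dark blue and other-date WT in light blue. The genes were chosen for this separation, so the plot shows its size, such as 80.1 TPM of Noct in TG2-KO against 8.72 and 10.6 TPM in the WT livers, and Kap listed at 0 in TG2-KO.

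Ahcy appeared among the lowest genes, but its value cannot be read alone. Ahcy encodes S-adenosylhomocysteine hydrolase, which clears the product of methylation reactions, and lies on chromosome 2 from 155059310 to 155074497 (minus strand), 3.06 Mb from Tgm2. Gm4737 is a retrogene of 1 exon on chromosome 16 from 46152985 to 46155077. Its transcript aligned to that of Ahcy over 2083 bases with 6 mismatches (99.7% identity), and 4 of 1299 coding bases differed. Those 4 are C564T and G579A in exon 5 and C1155T and C1173T in exon 9 of the Ahcy transcript, counted from 1 at its 5′ end with the Ahcy base first. The 50-base stretches that hold them are shown because they are the only coding positions at which the annotated sequences differ, and capitals mark the differing bases. On GRCm38 the Ahcy stretches lie at chr2:155064877-155064926 and chr2:155062230-155062279 and those of Gm4737 at chr16:46154518-46154567 and chr16:46153927-46153976, all on the minus strand.
Ahcy stretch in exon 5: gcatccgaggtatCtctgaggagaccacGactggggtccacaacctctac
Gm4737 counterpart of that stretch: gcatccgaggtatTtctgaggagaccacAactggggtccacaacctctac
Ahcy stretch in exon 9: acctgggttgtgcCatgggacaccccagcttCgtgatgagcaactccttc
Gm4737 counterpart of the exon 9 stretch: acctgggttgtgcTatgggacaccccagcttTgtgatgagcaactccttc

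Ahcy had 23.9 TPM in the TG2-KO liver after LPS, against 603 and 671 TPM in the WT and other-date WT livers. Gm4737 ran the other way, with 779.99 TPM in the TG2-KO liver, against 1.62 TPM in WT and 3.21 TPM in other-date WT. The sum of both was 804 TPM in the TG2-KO liver, against 604 TPM in the WT and 675 TPM in the other-date WT liver, a difference of 0.41 and 0.25 log2 units. With PBS the sum was 1243 TPM in TG2-KO and 1227 TPM in WT, while Ahcy alone was 34.3 TPM in TG2-KO and 1222 TPM in WT. Taken as a pair, Ahcy and Gm4737 did not reach the size rule in either condition, and the separate values of either gene are uncertain.

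**Figure D3:**
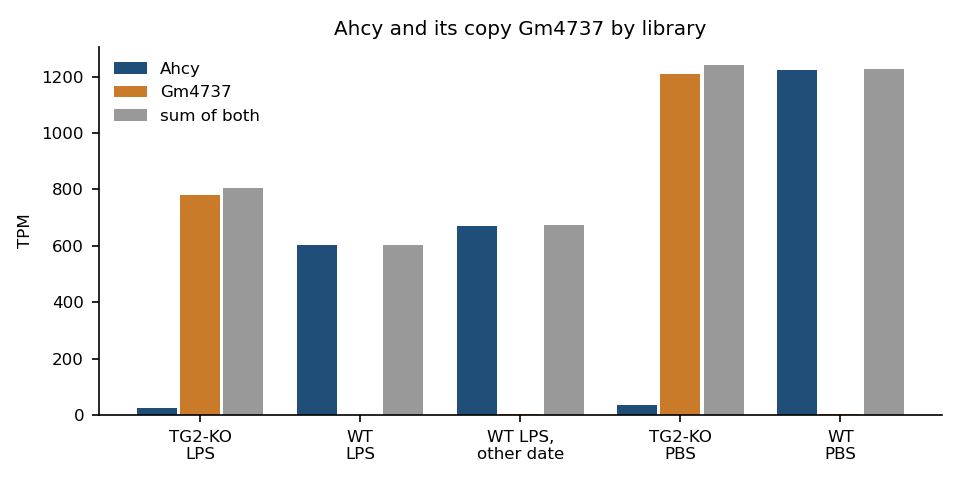
Bars give TPM of Ahcy (blue), its retrocopy Gm4737 (orange) and their sum (grey) in 5 liver libraries, 1 per group. The TG2-KO bars sit almost wholly on Gm4737 and the WT bars on Ahcy, while the sums are 804, 604 and 675 TPM after LPS and 1243 and 1227 TPM with PBS.

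Of the 122 genes that stood beyond both WT livers, 14 had a transcript of another gene that aligned at 95% identity or more over at least 50% of their length. Selenbp2, a liver selenium-binding protein gene, had 75.2 TPM in the TG2-KO liver, against 236 and 294 TPM in the WT and other-date WT livers. Summed with Selenbp1 (98.5% identity) it was 180 TPM in TG2-KO, against 294 TPM in WT and 388 TPM in other-date WT, with differences of -0.70 and -1.10. Tgtp2, an interferon-induced GTPase gene, had 14.8 TPM in the TG2-KO liver, against 37.0 TPM in WT and 30.7 TPM in other-date WT. Its sum with Tgtp1 (99.8% identity) was 120 TPM in TG2-KO, against 216 TPM in WT and 187 TPM in other-date WT, with differences of -0.84 and -0.63. Ccl19 summed with Gm2564 (98.9% identity) was 9.29 TPM in TG2-KO, against 30.2 TPM in WT and 34.8 TPM in other-date WT, and so remained past the size rule. Mup9, Cyp2c69 and Acaa1b also had such copies, among genes that are not in the table.

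The neighbourhood of Tgm2 was read for other differences. Within 5 Mb of it, 25 other genes were measured, of which 1 was at least 1 log2 unit above both WT livers, 1 below both, and 23 neither. The lower one was Ahcy. The higher one was Acss2, encoding a cytosolic acetyl-CoA synthetase, with 35.5 TPM in the TG2-KO liver, against 11 and 13.6 TPM in the WT and other-date WT livers. It was higher with PBS too, at 124 TPM in TG2-KO and 34.3 TPM in WT. Lbp, the LPS-binding protein gene and the nearest measured neighbour, had 430.05 TPM in the TG2-KO liver, against 305 TPM in WT and 408 TPM in other-date WT. Across chromosome 2, by the size rule 9 of 274 measured genes were above both WT livers and 4 below both. Over all measured genes these shares were 1.79% and 1.42%.

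The highest genes of the TG2-KO liver were led by Noct, the rhythmically expressed gene of nocturnin, an enzyme that acts on NADP(H). Noct had 80.1 TPM in the TG2-KO liver, against 8.72 and 10.6 TPM in the WT and other-date WT livers, differences of 3.06 and 2.81. With PBS it was 34.5 TPM in TG2-KO and 26.9 TPM in WT. In TG2-KO it was thus higher with LPS than with PBS, and in WT lower. Wipf3, encoding a regulator of actin assembly, had 10.2 TPM in the TG2-KO liver, against 1.48 TPM in WT and 1.00 TPM in other-date WT, and with PBS 3.55 TPM in TG2-KO and 4.85 TPM in WT. Of the 14 highest named genes, 12 were lower with LPS than with PBS in WT liver, and 6 were already at least 1 log2 unit higher in TG2-KO with PBS.

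Some of the highest genes lay nearer to their PBS level in TG2-KO than in WT. The choice of genes favours this pattern, so it is a description only. Listed genes all differed between the WT LPS and PBS livers, and these were picked for a high TG2-KO level after LPS. Reep6, encoding a protein that shapes the endoplasmic reticulum, had 829.9 TPM in the TG2-KO liver, against 243 and 283 TPM in the WT and other-date WT livers. Its PBS values were 908 TPM in TG2-KO and 1312 TPM in WT. Coq8a, an atypical kinase needed for coenzyme Q synthesis, had 27.7 TPM in the TG2-KO liver, against 4.62 TPM in WT and 6.34 TPM in other-date WT, with PBS values of 29.3 TPM in TG2-KO and 51.2 TPM in WT. Cmtm8, encoding a membrane protein of the MARVEL type, had 65.8 TPM in the TG2-KO liver, against 24.0 TPM in WT and 24.2 TPM in other-date WT. Adh4, an alcohol dehydrogenase gene, had 27.3 TPM in the TG2-KO liver, against 8.46 TPM in WT and 7.18 TPM in other-date WT, with PBS values of 58.1 TPM in TG2-KO and 54.5 TPM in WT.

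Other high genes differed between the genotypes without LPS as well. Fitm1, which encodes a protein of lipid droplet formation, had 55.8 TPM in the TG2-KO liver, against 8.63 and 7.31 TPM in the WT and other-date WT livers, and with PBS 76.9 TPM in TG2-KO and 22.8 TPM in WT. Serpina7, the gene of thyroxine-binding globulin, had 80.3 TPM in the TG2-KO liver, against 23.7 TPM in WT and 12.4 TPM in other-date WT, and with PBS 45.2 TPM in TG2-KO and 5.71 TPM in WT. Mup9, a major urinary protein gene with many near-identical copies, had 110.35 TPM in the TG2-KO liver, against 22.9 TPM in WT and 27.3 TPM in other-date WT, and with PBS 320 TPM in TG2-KO and 48.2 TPM in WT. Aqp8, a water channel gene of hepatocytes, had 19.6 TPM in the TG2-KO liver, against 3.69 TPM in WT and 2.93 TPM in other-date WT.

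Lipid synthesis genes were the list that stood highest. Of 30 measured genes of lipogenesis, cholesterol and lipoproteins, 11 were at least 1 log2 unit higher and 0 lower than in the WT liver, and 7 higher and 0 lower than in the other-date WT liver. All 7 were past the rule against both (1.79% of all measured genes were), and 24 of the 30 lay above both WT livers by any amount, beside 33.9% of all measured genes and 40.5% of those lower with LPS in WT, as 28 of the 30 were. The median difference was 0.79 against WT and 0.50 against the other-date WT, beside 0.16 and -0.12 over all measured genes. The other-date WT minus WT median was 0.32, beside 0.28 over all. After median-of-ratios scaling the TG2-KO medians were 0.54 against WT and 0.67 against the other-date WT, with -0.04 and 0.05 over all, so the direction held. With PBS the list's median TG2-KO minus WT difference was 0.15.

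The mevalonate and squalene steps of cholesterol synthesis held most of the 7. Sqle, the gene of squalene epoxidase, had 21.1 TPM in the TG2-KO liver, against 4.0 and 5.74 TPM in the WT and other-date WT livers, and with PBS 10.6 TPM in TG2-KO and 1.24 TPM in WT. Idi1, the isomerase that supplies the building blocks of isoprenoids, had 16.4 TPM in the TG2-KO liver, against 3.58 TPM in WT and 2.78 TPM in other-date WT. With PBS Idi1 had 26.8 TPM in TG2-KO and 8.82 TPM in WT. Fdft1, the gene of squalene synthase, had 25.1 TPM in the TG2-KO liver, against 6.71 TPM in WT and 9.05 TPM in other-date WT. For Fdft1 the PBS livers were level, at 23.5 TPM in TG2-KO and 25.5 TPM in WT, unlike those for Sqle and Idi1. Mvk, the gene of mevalonate kinase, had 5.74 TPM in the TG2-KO liver, against 0.47 TPM in WT and 2.20 TPM in other-date WT. With PBS Mvk had 8.22 TPM in TG2-KO and 7.55 TPM in WT.

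Fatty acid genes were also among them. Elovl3, a fatty acid elongase gene, had 10.3 TPM in the TG2-KO liver, against 1.84 and 2.47 TPM in the WT and other-date WT livers, and with PBS 11.5 TPM in TG2-KO and 13.4 TPM in WT. Acacb, the mitochondrial acetyl-CoA carboxylase gene, had 6.01 TPM in the TG2-KO liver, against 1.96 TPM in WT and 1.79 TPM in other-date WT. With PBS Acacb was higher in TG2-KO too, at 24.6 TPM against 9.68 TPM in WT. Srebf1, named after its values were seen, encodes a transcription factor of lipogenesis and had 26.6 TPM in TG2-KO, against 7.59 TPM in WT and 13.6 TPM in other-date WT. Mid1ip1, whose product activates acetyl-CoA carboxylase, was not in the list and had 12.9 TPM in the TG2-KO liver, against 2.12 TPM in WT and 4.05 TPM in other-date WT. Abca1, the cholesterol exporter gene, was the member below the WT liver, at 41.4 TPM in TG2-KO, against 58.2 TPM in WT and 42.1 TPM in other-date WT.

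**Figure D4:**
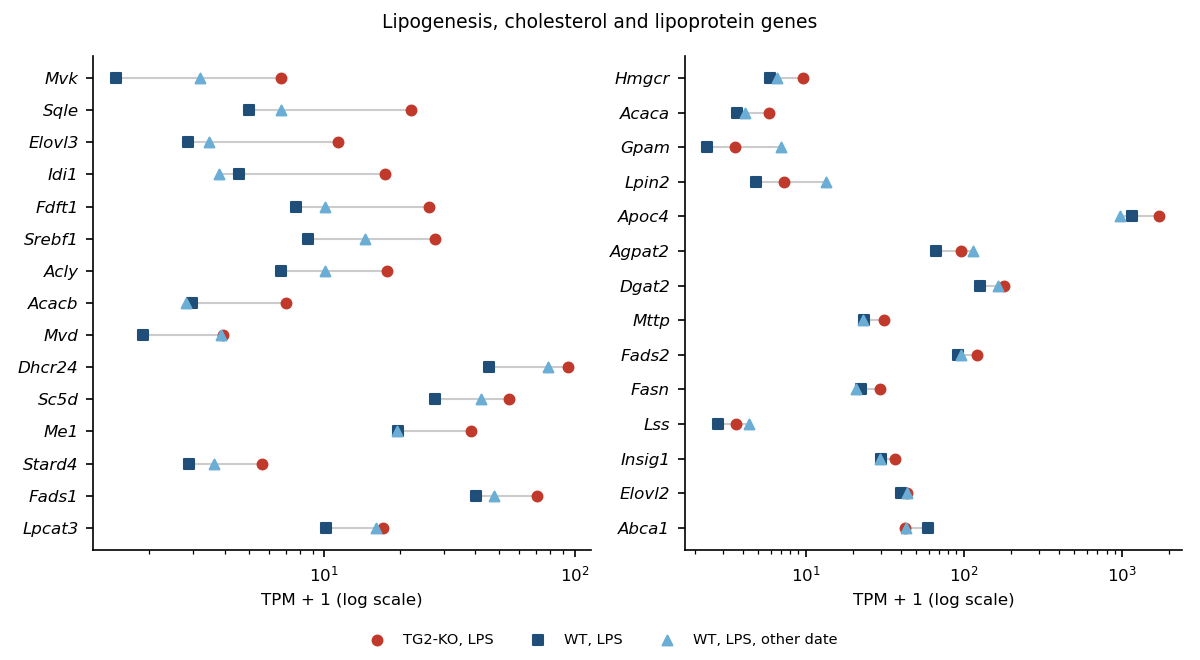
Dots give TPM + 1 on a log scale of 29 of the 30 measured genes of lipogenesis, cholesterol and lipoproteins after LPS, in order of the TG2-KO minus WT difference, with TG2-KO in red, WT in dark blue and other-date WT in light blue. The TG2-KO dot lies to the right of both WT dots in 23 of them and is left of the WT dot in Abca1 alone.

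The fatty acid oxidation and bile acid lists held fewer genes above both WT livers by the size rule. Of 26 measured fatty acid oxidation and ketogenesis genes, 12 lay above and 4 below both WT livers, and by the size rule 2 and 0 did. Acaa1b, a peroxisomal thiolase gene, had 394 TPM in the TG2-KO liver, against 163 and 131 TPM in the WT and other-date WT livers. Acot3, a peroxisomal thioesterase gene, had 2.64 TPM in TG2-KO, against 0.23 TPM in WT and 0.41 TPM in other-date WT. This list's median against WT was 0.20 and turned to -0.05 after median-of-ratios scaling. Of 18 bile acid genes 12 lay above and 1 below both, and by the size rule 1 and 0 did. The gene past the rule was Cyp8b1, the sterol 12-alpha-hydroxylase gene, with 45.9 TPM in the TG2-KO liver, against 21.4 TPM in WT and 12.6 TPM in other-date WT. All but 3 genes of each of these lists were lower with LPS in WT. Of all such genes 40.5% lay above both and 17.9% below both. By the size rule 1.79% of all measured genes lay above and 1.42% below both. Of 11 measured genes with sex-biased expression in liver, 5 lay above and 5 below both WT livers. By the size rule 4 lay above and 2 below, both larger shares than over all measured genes. The 2 below were Cyp2a4 and Selenbp2, described above. The list was not divided by the sex in which a gene is higher, so these counts give no direction by sex. Hsd3b5, a male-biased steroid dehydrogenase gene, had 28.3 TPM in the TG2-KO liver, against 11.6 TPM in WT and 10.6 TPM in other-date WT, although with PBS it was lower in TG2-KO, at 60.0 TPM against 188 TPM in WT.

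Inflammatory lists were read beside the shares over all genes higher with LPS in WT. Of 58 measured type I interferon-stimulated genes, all higher with LPS in WT, 14 lay above and 27 below both WT livers, and by the size rule 3 and 1 did. Of all genes higher with LPS in WT, 21.2% lay above and 49.1% below both by any amount. By the size rule 0.853% of those genes lay above and 3.49% below both. The list's median was -0.29 against WT and 0.03 against the other-date WT, near the -0.37 that lay between the WT livers. Ifit1, an antiviral gene that binds foreign RNA, had 983 TPM in the TG2-KO liver, against 442 TPM in the WT and 96.0 TPM in the other-date WT liver. The WT livers differed by -2.19 log2 units here, more than the 1.15 between TG2-KO and WT. Oasl1 had 419 TPM in the TG2-KO liver, against 182 TPM in WT and 97.5 TPM in other-date WT, and Cmpk2, a mitochondrial nucleotide kinase gene, 174 TPM in TG2-KO, against 80.0 TPM in WT and 24.4 TPM in other-date WT. Irf8, a transcription factor of myeloid cells, had 7.39 TPM in the TG2-KO liver, against 20.6 TPM in WT and 17.9 TPM in other-date WT. Irf8 was the member below both by the size rule.

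Of 17 measured cytokine genes, all higher with LPS in WT, 2 lay above and 9 below both WT livers, but by the size rule 0 and 1 did. The share below both was near the 49.1% of all genes higher with LPS. By the size rule 0.853% of all such genes lay above and 3.49% below both. Of 19 chemokine genes 5 lay above and 9 below both, and by the size rule 0 and 1. Tnf, the gene of tumour necrosis factor, had 2.00 TPM in the TG2-KO liver, against 4.97 and 10.1 TPM in the WT and other-date WT livers. Il1a had 5.29 TPM in the TG2-KO liver, against 14.3 TPM in WT and 20.6 TPM in other-date WT, and was the cytokine below both by the size rule. Cxcl2, a neutrophil attractant, had 29.9 TPM in the TG2-KO liver, against 92.6 TPM in the WT and 31.5 TPM in the other-date WT liver, so its low value was shared by a WT liver. Csf3, the granulocyte growth factor gene, had 11.5 TPM in TG2-KO, against 38.1 TPM in WT and 15.5 TPM in other-date WT. Of 28 NF-kB genes 5 lay above and 11 below both WT livers, and of 16 Toll-like receptor genes 5 and 2 did, but 0 of either list did by the size rule. The WT livers' own median differences were -0.36 and -0.38 in those lists.

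**Figure D5:**
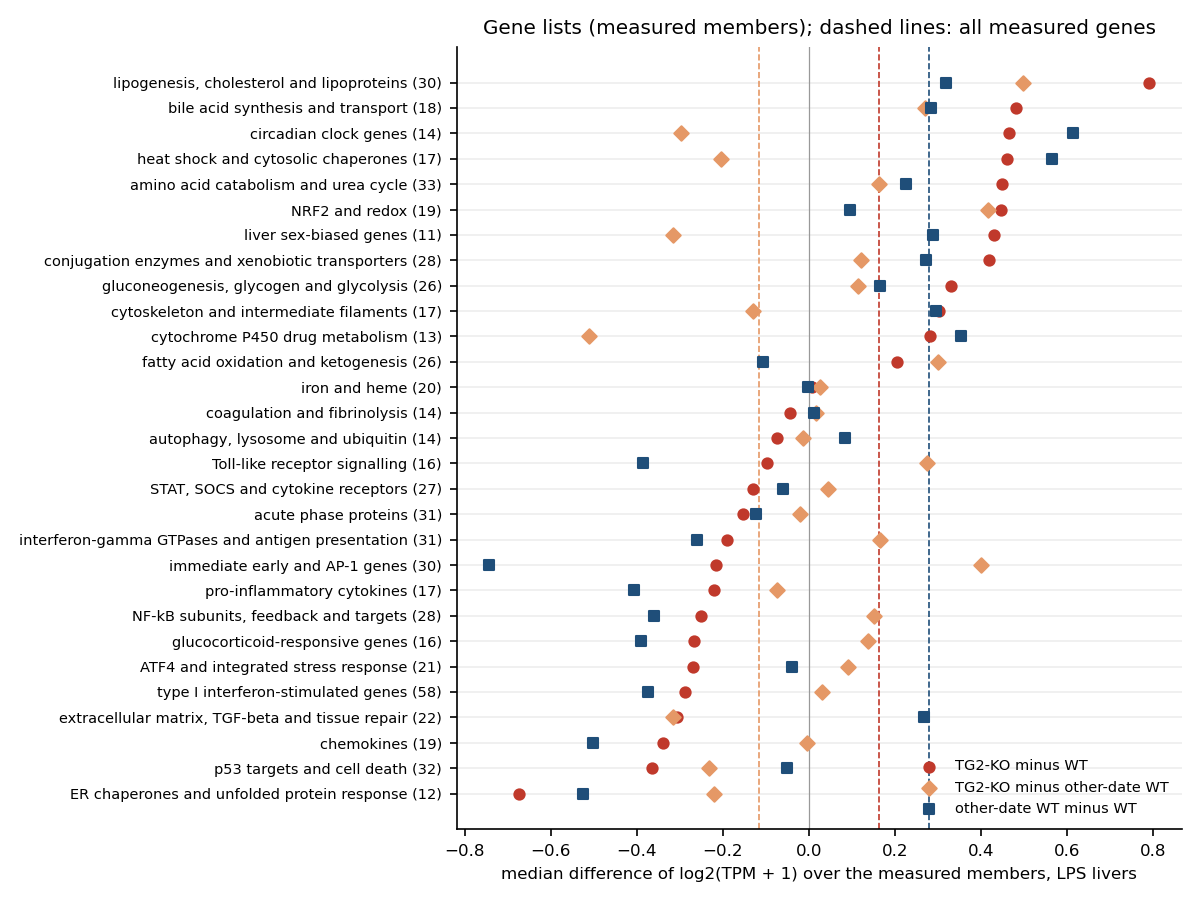
Points give the median difference of log2(TPM + 1) over the measured members of each gene list, cell marker lists aside, with at least 10 of them (number in brackets) for TG2-KO minus WT (red), TG2-KO minus other-date WT (orange) and other-date WT minus WT (blue), all after LPS, and dashed lines give all measured genes. Lipid synthesis stands highest in red at 0.79 and in orange at 0.50, while the inflammatory lists lie left of zero in red and blue.

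Acute phase proteins, a main product of the LPS-exposed liver, held 2 genes past the size rule against both WT livers. Of 31 measured, 29 of them higher with LPS in WT, 6 lay above and 14 below both WT livers, and by the size rule 0 and 2 did, with a median of -0.15 against WT and -0.02 against the other-date WT. Those past the rule were A2m and Hamp2. Of all genes higher with LPS in WT, 21.2% lay above and 49.1% below both WT livers by any amount. By the size rule these shares were 0.853% and 3.49%. Hamp2, a hepcidin gene, had 115 TPM in the TG2-KO liver, against 296 and 233 TPM in the WT and other-date WT livers. Saa3 had 3277 TPM in the TG2-KO liver, against 5776 TPM in WT and 5554 TPM in other-date WT. The PBS livers were not alike in this list: the median TG2-KO minus WT difference with PBS was 1.46. Saa2 and Lcn2, named after their values were seen, show it, with 2469 TPM in TG2-KO and 68.9 TPM in WT for Saa2 and 589 TPM in TG2-KO and 56.9 TPM in WT for Lcn2. A smaller LPS minus PBS difference of these genes in TG2-KO therefore rests on the PBS library as well.

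Some growth arrest and stress genes were lower in the TG2-KO liver. Of 32 measured p53 target and cell death genes, 4 lay above and 21 below both WT livers, and by the size rule 0 and 2 did. Of these genes 31 were higher with LPS in WT, and 49.1% of all such genes lay below both by any amount. By the size rule 3.49% of all such genes did. The median was -0.37 against WT and -0.23 against the other-date WT (-0.62 and -0.07 after median-of-ratios scaling). Ccng1, a p53 target gene, had 11 TPM in the TG2-KO liver, against 26.5 and 38.1 TPM in the WT and other-date WT livers. Cdkn1a, the gene of the cell cycle inhibitor p21, had 148 TPM in TG2-KO, against 278 TPM in WT and 273 TPM in other-date WT. Of 21 genes of the ATF4 stress response 8 lay above and 8 below both, with a median of -0.27 against WT and 0.09 against the other-date WT. By the size rule 0 were above and 3 below (1.42% of all measured genes were below): Sesn2, Ddit3 and Nupr1. Cth, the gene of the cysteine-forming enzyme cystathionine gamma-lyase, ran the other way, with 65.6 TPM in the TG2-KO liver, against 28.4 and 45.0 TPM in the WT and other-date WT livers. Ddit3, the gene of the stress factor CHOP, had 5.28 TPM in the TG2-KO liver, against 13.1 TPM in WT and 21.4 TPM in other-date WT. Nupr1 had 8.43 TPM in TG2-KO, against 18.9 TPM in WT and 19.7 TPM in other-date WT, and Sesn2 had 5.26 TPM in TG2-KO, against 13.4 TPM in WT and 13.7 TPM in other-date WT.

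Matrix genes and TG2 partners were read because the enzyme crosslinks matrix proteins. Of 22 measured matrix and tissue repair genes, 2 lay above and 12 below both WT livers, and by the size rule 0 and 2 did, Sparc and Col1a2. Of all measured genes 28.5% lay below both by any amount and 1.42% by the size rule. Among genes higher with LPS in WT, as 13 of the 22 were, 49.1% lay below both by any amount. Col1a2, a collagen I chain gene, had 1.02 TPM in the TG2-KO liver, against 3.27 and 6.18 TPM in the WT and other-date WT livers, and with PBS 2.10 TPM in TG2-KO and 6.54 TPM in WT. Col1a2 is also 1 of the 4 measured stellate cell and fibroblast markers, of which 0 lay above and 3 below both WT livers. Those markers summed to 12.2 TPM in the TG2-KO, 14.6 in the WT and 25.6 in the other-date WT liver, with medians of -0.17 against WT and -0.67 against the other-date WT, and with PBS the median TG2-KO minus WT difference was -0.68. The part of these cells in the matrix genes was not tested. Of 5 measured transglutaminases and TG2 partners, by the size rule Tgm2 was below both and Adra1b, the gene of an adrenergic receptor that couples to TG2, above both. Adra1b had 8.0 TPM in the TG2-KO liver, against 2.28 TPM in WT and 3.11 TPM in other-date WT, and was level with PBS at 15.5 TPM in TG2-KO and 16.0 TPM in WT.

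Markers of cells other than hepatocytes moved between the livers. The 9 measured Kupffer cell markers were all below the other-date WT liver, with a median of -0.97, and had a median of -0.05 against the WT liver. Their listed TPM summed to 129 in the TG2-KO, 123 in the WT and 197 in the other-date WT liver. Monocyte markers (9 measured) had medians of 0.13 against WT and -0.77 against the other-date WT, with sums of 478 TPM in the TG2-KO, 439 in the WT and 419 in the other-date WT liver. Neutrophil markers (12 measured) had medians of 0.37 against WT and -0.08 against the other-date WT, with sums of 205 TPM in the TG2-KO, 127 in the WT and 173 in the other-date WT liver. Sinusoidal endothelial markers (13 measured) had medians of -0.02 against WT and -0.48 against the other-date WT, with sums of 96.0 TPM in the TG2-KO, 92.7 in the WT and 135 in the other-date WT liver. Erythroid and platelet markers (6 measured) had medians of -1.23 against WT and 0.88 against the other-date WT, with sums of 2512 TPM in the TG2-KO, 6240 in the WT and 1353 in the other-date WT liver. After median-of-ratios scaling the monocyte median against WT turned to -0.13 and the neutrophil median against the other-date WT to 0.08, while the others kept their sign. No listed marker of these lists was at 0 in the 3 livers. Hba-a1, a haemoglobin gene, had 1113 TPM in the TG2-KO liver, against 2904 TPM in the WT and 597 TPM in the other-date WT liver. The part of these cells in the differences above was not tested, and in whole tissue fewer cells of a type and less RNA per cell cannot be told apart. Hepatocyte markers (3 measured) summed to 3468 TPM in the TG2-KO, 3215 in the WT and 2504 in the other-date WT liver. Hpd had 1313 TPM in the TG2-KO liver, against 923 and 918 TPM in the WT and other-date WT livers. Tat had 1742 TPM in the TG2-KO liver, against 2031 and 1363 TPM in the WT and other-date WT livers. Ttc36 had 413 TPM in the TG2-KO liver, against 261 and 224 TPM in the WT and other-date WT livers.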

How the data were processed

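Liver RNA libraries were of a stranded poly(A) kit, per the labels' protocols. Values were deposited by the authors as TPM for each gene symbol, with 2 decimals. Salmon and mm10 (GRCm38) are named in the submitters' processing notes, while the Salmon version, the annotation and the handling of reads shared by similar genes are not given in the sources used here. Values were compared as log2(TPM + 1), with the filter and the size rule given above, in Python 3.11.15 with pandas 2.3.3. Positions are from GENCODE M21 (GRCm38), in which 5243 genes had 1 place, and near-identical transcripts were sought with blastn 2.17.0. The members and gene lists were chosen with earlier results of these data known.

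Named were Tgm2 and the 14 highest and 14 lowest genes by the smaller of both differences, where both had 1 sign and a size of at least 1 and a liver reached 10 TPM, skipping predicted genes. Up to 6 members of each list described could be named, first those beyond both WT livers. Other genes were named after their values were seen: Gm4737, Gm43305, Acss2, Lbp, Serpina3i, Serpina3n, Cyp2a5, Srebf1, Abca1, Saa2, Lcn2 and Hba-a1. Alternatives were pseudocounts of 0.1 and 5, a filter at 5 TPM or none, scaling by median of ratios, a size rule of 2 and other WT libraries. Some genes are not reported here.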

Additional observations from a re-analysis of the deposited data

Results flagged for a closer look

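Of the genes named by rule, 3 had an LPS minus PBS difference that ran one way in the TG2-KO livers and the other way in the WT livers, by at least 1 log2 unit each. For Noct the difference was 1.19 in TG2-KO and -1.52 in WT, so that TG2-KO minus WT was 2.71. For Wipf3 it was 1.30 in TG2-KO and -1.24 in WT, and TG2-KO minus WT was 2.54. For Kap it was -2.73 in TG2-KO and 1.98 in WT, and TG2-KO minus WT was -4.71, with the TG2-KO LPS liver listed at 0. With 1 library per group these differences between genotypes were not tested. The choice of genes favours them. Listed genes differed by at least 2-fold between the WT LPS and PBS livers, and these were picked for their TG2-KO level after LPS.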

How the results depend on the processing

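Every comparison had 1 library per group and different dates, TPM hide the read depth, and the WT LPS library helped to choose the listed genes, so all counts describe these livers. No paired analysis was possible because each group had 1 library. Counts below are higher and lower genes. With a pseudocount of 0.1, TG2-KO against WT gave 373 and 172, TG2-KO was lower than the other-date WT in 497, the other-date WT was higher than the WT in 605, and the libraries beyond both others gave 108 and 100 (TG2-KO), 22 and 155 (WT) and 266 and 61 (other-date WT). With a pseudocount of 5 the 3 comparisons gave 61 and 42, 80 and 47, and 42 and 48, and beyond both others stood 32 and 19 (TG2-KO), 4 lower (WT) and 14 and 22 (other-date WT). With a filter at 5 TPM the 3 comparisons gave 133 and 78, 125 and 113, and 102 and 74. Beyond both others then stood 30 lower (WT) and 34 higher (other-date WT). Median-of-ratios scaling gave 110 and 201, 248 and 148, and 103 and 323, with 55 and 17 (WT) and 36 and 105 (other-date WT) beyond both others. A size rule of 2 left 14 and 14, 17 and 21, and 14 and 8, and 6 and 11 (TG2-KO), 1 and 1 (WT) and 4 and 4 (other-date WT). Against the mean of both WT livers 120 genes were higher. Beyond 2 more WT LPS livers stood 32 and 15. The erythroid and platelet median turned to 0.88 against the other-date WT. The scale and the fewer genes tested move these counts by construction; for the scaling the cause was not tested. Under alternatives 191 list medians moved by less than 0.417. That is the SD of the gene differences between the WT livers, divided by the square root of 2. The 13 list medians that moved by more and the 1 counted as reversed all came with the other-date WT liver as the reference. Only a median of at least 1 in size could be counted as reversed. Smaller medians also changed sign with that reference. Examples are the drug-metabolising P450 genes, from 0.28 to -0.51, and the immediate early and AP-1 genes, from -0.22 to 0.40. With that reference 27 list medians moved by less than 0.417. Of the named gene differences 132 moved by less and 36 by more.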

Other observations

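Redox and folding genes, not described above, differed as follows. Hmox1, the haem oxygenase gene, had 561 TPM in the TG2-KO liver after LPS, against 256 and 188 TPM in the WT and other-date WT livers, and with PBS 43.0 TPM in TG2-KO and 19.4 TPM in WT. Akr1b8, an aldo-keto reductase gene, had 3.76 TPM in the TG2-KO liver, against 0.60 TPM in WT and 1.01 TPM in other-date WT. These were 2 of 19 measured NRF2 and redox genes above both WT livers by the size rule, with 0 below both. Over all measured genes these shares were 1.79% and 1.42%. Of 12 measured genes of endoplasmic reticulum folding, 0 lay above both WT livers and 6 below both, near the 49.1% of all genes higher with LPS in WT, as 11 of the 12 were. Dnajb9, a chaperone gene of that compartment, had 50.2 TPM in the TG2-KO liver, against 159 TPM in the WT and 71.7 TPM in the other-date WT liver. With PBS it was higher in TG2-KO, at 96.8 TPM against 43.6 TPM in WT.

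Dbp, a clock-driven transcription factor gene, had 19.7 TPM in the TG2-KO liver, against 3.58 TPM in the WT and 15.0 TPM in the other-date WT liver. Noct was the 1 of 14 measured clock genes above both WT livers by the size rule, beside 1.79% of all measured genes.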
